A study of Rattus norvegicus with 6 samples.

Results

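The arterial matrix genes examined here were Col1a1 (ENSRNOG00000003897), Col1a2 (ENSRNOG00000011292), Col3a1 (ENSRNOG00000003357), Eln (ENSRNOG00000001469), Fn1 (ENSRNOG00000014288) and Timp1 (ENSRNOG00000010208). They were chosen by Ensembl ID and not by a measured value, as 6 of 13304 features, a feature being an Ensembl gene ID or, where no ID was given, a gene locus. Of the 6, 5 were listed in every library and could be tested, and Col3a1 could not. The libraries came from aortic vascular smooth muscle cells (VSMCs) of SD rats, labelled wild type for the 2 controls and SLC2A10-/- for the other 4. The paper describes the controls as cells that received control virus and the others as cells in which short hairpin RNA virus knocked down SLC2A10, the gene of the glucose transporter GLUT10. The sample titles name siRNA and give 2 libraries to interference sequence 2 and 2 libraries to interference sequence 3. The labels do not say whether the 2 libraries of a group came from separate cultures, and the p-values therefore measure no more than library-to-library spread, possibly technical. The extraction protocol names frozen aorta, and whether tissue or cultured cells were sequenced was not settled.

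Collagens, elastin and fibronectin form the load-bearing matrix that VSMCs lay down between the elastic layers of the aorta. Collagen I is a heterotrimer of 2 chains from Col1a1 and 1 chain from Col1a2 and gives the wall its tensile strength, collagen III (Col3a1) forms thinner fibrils beside it, and elastin (Eln) gives recoil. Fibronectin (Fn1) is a glycoprotein that cells assemble into fibrils through integrins, and Timp1 is a secreted inhibitor of matrix metalloproteinases, the enzymes that degrade matrix. Inherited loss of SLC2A10 causes arterial tortuosity syndrome, in which arteries are elongated and elastic fibres are disrupted.

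Levels are in FPKM, a fragment density that accounts for transcript length and library size. The level of a gene was taken as the larger of the summed transcript starts and the summed transcript ends listed for its ID. The files hold no read counts, so the depth behind each value is unknown. The FPKM of all features summed to between 298377 and 326236 in 5 libraries and to 368004 in replicate 2 of sequence 3, which also had the fewest listed features, 11431 against 11506 to 11701. Values without that library are therefore given for Fn1 and Timp1, whose estimates in knockdown or with sequence 3 moved most without it. The targeted gene and the markers of smooth muscle, endothelial, fibroblast and immune cells were not analysed here, because their IDs were not paired with names. In RNA from many cells, fewer cells of a type and less RNA per cell cannot be told apart.

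Col1a1, the main chain of collagen I, had the highest level of the 6 genes in every library. Its FPKM was 3972 and 3649 in the controls, 3623 and 4075 with sequence 2, and 3716 and 3632 with sequence 3. It held rank 1 or 2 among the 10558 tested features in each library, and the values of the 3 groups overlapped. Col1a2, Fn1 and Timp1 followed, between 630 and 1369, and Eln was lowest of the 5 listed throughout in all 6 libraries, with an FPKM between 74.5 and 110.4. The order of these 3 was not the same in all libraries. Fn1 was above Col1a2 in 2 of 6 libraries, and in replicate 2 of sequence 3 Fn1 was also below Timp1. The 6 genes together made up 1.75% to 2.54% of the summed FPKM, where Col3a1 counted as 0 in each library that did not list its ID.

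**Figure D1:**
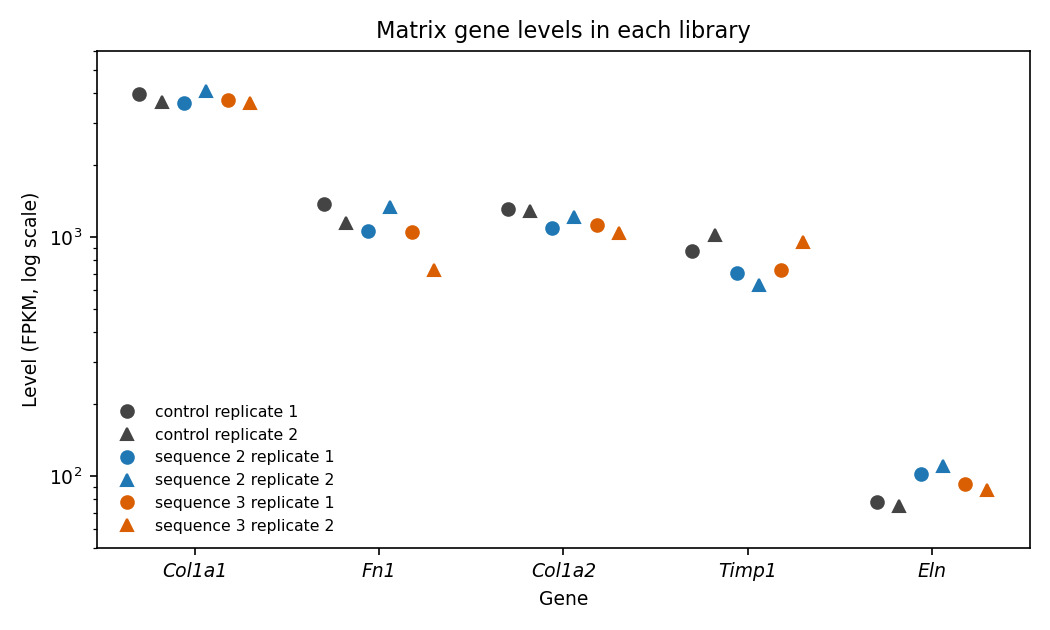
Level of 5 matrix genes in each of 6 libraries, in FPKM on a log axis, 1 point per library, coloured by group and shaped by replicate. Col1a1 lies highest and Eln lowest in all libraries, and Fn1 is lowest in replicate 2 of sequence 3 at 728. Col3a1 is not drawn because its ID was listed in 1 library only.

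The question of the comparison was whether interference with SLC2A10 changed the level of matrix genes. By limma with Benjamini-Hochberg adjustment, 0 of the 5 tested genes passed an adjusted p of 0.05 in knockdown against control, where 5.11% of the 10558 tested features passed, 2.83% lower and 2.27% higher. There was 1 gene at an unadjusted p under 0.05, Eln, against 21.9% of all features. The estimate was below 0 for 4 genes and above 0 for Eln, with a median log2 fold change of -0.22 over the 5 genes and 0.08 over all tested features. With sequence 2 alone 0 of 5 passed, against 3.55% of all features (2.42% lower, 1.14% higher), and Eln and Timp1 were the 2 at an unadjusted p under 0.05, against 16.2% of all features. With sequence 3 alone 0 of 5 passed, against 4.21% (2.4% lower, 1.81% higher), and 0 at an unadjusted p under 0.05, against 22.4%. Sequence 3 against sequence 2 also gave 0 of 5, where 0.0663% of all features passed (0.0284% lower, 0.0379% higher), and 0 at an unadjusted p under 0.05, against 5.44%. A gene that did not pass is not thereby shown to be unchanged, and the interval of each estimate is given below.

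Col1a1 had a mean FPKM of 3810 ± 228 (SD, n = 2) in the controls and 3761 ± 213 (SD, n = 4) in the knockdown libraries. Its log2 fold change was -0.02 (95% interval -0.33 to 0.29, adjusted p = 0.945 from limma) and its fold 0.987. The direction of this estimate was not stable, and it was 0.04 without control replicate 1 and 0.02 without replicate 1 of sequence 2.

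The ID of Col1a1 covered loci on both strands of chromosome 10, in file coordinates. No source used here states their genome build. The plus-strand locus, from 82745801 to 82762789, carried nearly all of the level, with summed starts between 3623 and 3971 FPKM. A transcript end was listed for it only in replicate 2 of sequence 3, at 349 FPKM, so the level rests on its start in all libraries. A minus-strand locus from 82755413 to 82761659 had levels of 87.5 and 17.98 in the controls, 104.7 in replicate 2 of sequence 2 and 7.16 in replicate 1 of sequence 3, and was not listed in the other two. Reads of overlapping transcripts on opposite strands cannot be told apart without a strand-marking kit, and the sources used here do not say that the kit marked strand. The minus-strand loci held all 25 splicing and exon form events of the ID, and none of these was listed in all 6 libraries.

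Col1a2, the partner chain of collagen I, lies on the plus strand of chromosome 4 from 31532972 to 31569679 in the files. Its FPKM was 1305 and 1282 in the controls, 1091 and 1209 with sequence 2, and 1122 and 1037 with sequence 3. All 4 knockdown libraries were below both controls, an order that 11.2% of the tested features also showed. The mean was 1293 ± 16.2 (SD, n = 2) in controls and 1115 ± 72.2 (SD, n = 4) in knockdown, and the controls lay closer together than the knockdown libraries. The log2 fold change was -0.22 (95% interval -0.49 to 0.05, adjusted p = 0.317 from limma), a fold of 0.861, and the gene did not pass the test. From summed starts alone, which missed most of the level in replicate 1 of sequence 2, it was -0.92 (adjusted p = 0.578 from limma), and after quantile normalization -0.36 (adjusted p = 0.263).

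The end event of Col1a2 carried the whole level in every library. A start exon from 31533811 to 31534294 carried it in 4 libraries, a start from 31532972 to 31533059 was the only one listed in replicate 1 of sequence 2, at 155 FPKM against 1091 at the end, and replicate 2 of sequence 3 listed both, at 939 and 97.5 FPKM. An exon of 598 bases that retained the intron from 31536684 to 31537257 held the full level in 5 libraries, whereas replicate 2 of sequence 2 listed only the spliced form with an exon of 11 bases, at 1209 FPKM. The retained and the spliced form were never listed side by side in a library. Each was listed at the whole level of the gene or not at all, so these values do not measure how much of the transcript kept the intron.

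The RefSeq promoters of Col1a2 and Timp1 are shown because only these 2 of the 6 genes had an entry in the table used, so no promoter of the other genes stands beside these promoters. They are in build GRCr8, which differs from the coordinates of the files, at chr4:33518307-33518606 on the plus strand and chrX:3771073-3771372 on the minus strand, and end 50 bases after the gene start. Capitals mark matches on either strand to the TATA box TATAAA, the NF-Y motif CCAAT, the Sp1 motif GGGCGG, the AP-1 motif TGANTCA and the Smad motif CAGAC. The motifs do not overlap one another in these windows.
Col1a2: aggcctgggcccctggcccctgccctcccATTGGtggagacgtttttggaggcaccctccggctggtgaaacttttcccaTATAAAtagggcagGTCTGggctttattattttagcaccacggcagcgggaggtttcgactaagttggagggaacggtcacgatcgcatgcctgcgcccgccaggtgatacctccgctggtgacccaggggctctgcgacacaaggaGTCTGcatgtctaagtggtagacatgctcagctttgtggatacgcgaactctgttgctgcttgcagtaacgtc
Timp1: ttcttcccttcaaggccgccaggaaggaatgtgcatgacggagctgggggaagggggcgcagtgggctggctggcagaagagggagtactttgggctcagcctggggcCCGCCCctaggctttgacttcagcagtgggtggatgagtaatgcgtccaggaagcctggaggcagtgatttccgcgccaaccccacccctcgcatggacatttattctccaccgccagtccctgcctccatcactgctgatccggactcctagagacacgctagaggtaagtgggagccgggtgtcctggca

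The Col1a2 window held 1 TATAAA at -170 from the gene start, 1 CCAAT on the reverse strand at -221, and 2 CAGAC on the reverse strand at -156 and -23. Over all 33469 RefSeq promoters of the table, TATAAA was in 14.2%, CCAAT in 37.5% and CAGAC in 50.1%. The Timp1 window held 1 GGGCGG on the reverse strand at -142, a motif in 33.1% of promoters. The windows shared none of these motifs. Neither held TGANTCA, which was in 7.33% of promoters. A match is a description of letters and not of a bound site.

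Col3a1 could not be described by its ID. ENSRNOG00000003357 was listed only in replicate 2 of sequence 2, at an FPKM of 0.623, as a start and an end on the minus strand of chromosome 9 between 52045947 and 52057411, and was not listed in the other 5 libraries. On the plus strand the files held an overlapping locus with another ID, ENSRNOG00000052119, from 52023295 to 52059217, which was looked at after the values of Col3a1 were seen. It had an FPKM of 2723 and 2630 in the controls, 2493 and 2558 with sequence 2 and 2373 and 2378 with sequence 3, and held rank 3 to 7 among the tested features. All 4 knockdown libraries were below both controls, as in 11.2% of the tested features. The log2 fold change of ENSRNOG00000052119 was -0.13 with a standard error of 0.11, and the adjusted p from limma was 0.545. The files and the gene tables used here do not pair this ID with a name, so no level of collagen III is given.

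Eln was the one gene with a higher estimate in the knockdown libraries. It lies on the plus strand of chromosome 12 from 24978483 to 25020907 in the files, with 1 start and 1 end event and no splicing event. Its FPKM was 77.4 and 74.5 in the controls, 101.9 and 110.4 with sequence 2, and 92.3 and 87.3 with sequence 3. The groups did not overlap, both libraries of sequence 2 lying highest, and 22.6% of the tested features likewise had all 4 knockdown libraries above both controls. The log2 fold change was 0.36 (95% interval 0.13 to 0.59, adjusted p = 0.0965 from limma), a fold of 1.28, and Eln did not pass the test.

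Eln had a log2 fold change of 0.48 with sequence 2 (95% interval 0.21 to 0.74, adjusted p = 0.0879 from limma) and 0.24 with sequence 3 (-0.02 to 0.50, adjusted p = 0.257). Sequence 3 minus sequence 2 was -0.24 (-0.50 to 0.02, adjusted p = 0.735 from limma), so a difference between the sequences was not shown. Both events of Eln gave estimates above 0, 0.28 at the start (adjusted p = 0.148 from limma over all events) and 0.36 at the end (adjusted p = 0.111).

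Fn1, the gene of fibronectin, had the widest spread between replicates of the 5 genes in each group. Its main locus lies on the minus strand of chromosome 9 from 78900103 to 78969078 in the files. Its FPKM was 1369 and 1146 in the controls, 1058 and 1330 with sequence 2, and 1047 and 728 with sequence 3. Replicate 2 of sequence 3 was the lowest, and the groups overlapped. The difference between replicates of Fn1, in log2(FPKM + 1), was 0.26 in the controls, 0.33 with sequence 2 and 0.52 with sequence 3, which was larger than in 63.7%, 77.9% and 82.6% of the tested features.

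The log2 fold change of Fn1 was -0.30 (95% interval -0.79 to 0.19, adjusted p = 0.435 from limma) in knockdown against control and -0.17 without replicate 2 of sequence 3 (adjusted p = 0.604) or without control replicate 1 (adjusted p = 0.849). It was -0.43 without replicate 1 of sequence 3 (adjusted p = 0.177 from limma) or without control replicate 2 (adjusted p = 0.497). With sequence 3 alone it was -0.52 (-1.08 to 0.04, adjusted p = 0.250 from limma), -0.26 without replicate 2 of sequence 3 (adjusted p = 0.593) and -0.78 without replicate 1 (adjusted p = 0.102). With sequence 2 alone it was -0.08 (-0.64 to 0.48, adjusted p = 0.909 from limma), and 0.05 without control replicate 1. Fn1 passed the test in none of these comparisons.

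FPKM summed to a different total in each library, and a comparison chosen after seeing the data scaled all libraries to the same sum. This moved the median log2 fold change of all features from 0.08 to -0.01, and the 5 genes shifted down with it. Values of both scalings are given for the 3 genes whose groups did not overlap under at least 1 of them.

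**Figure D2:**
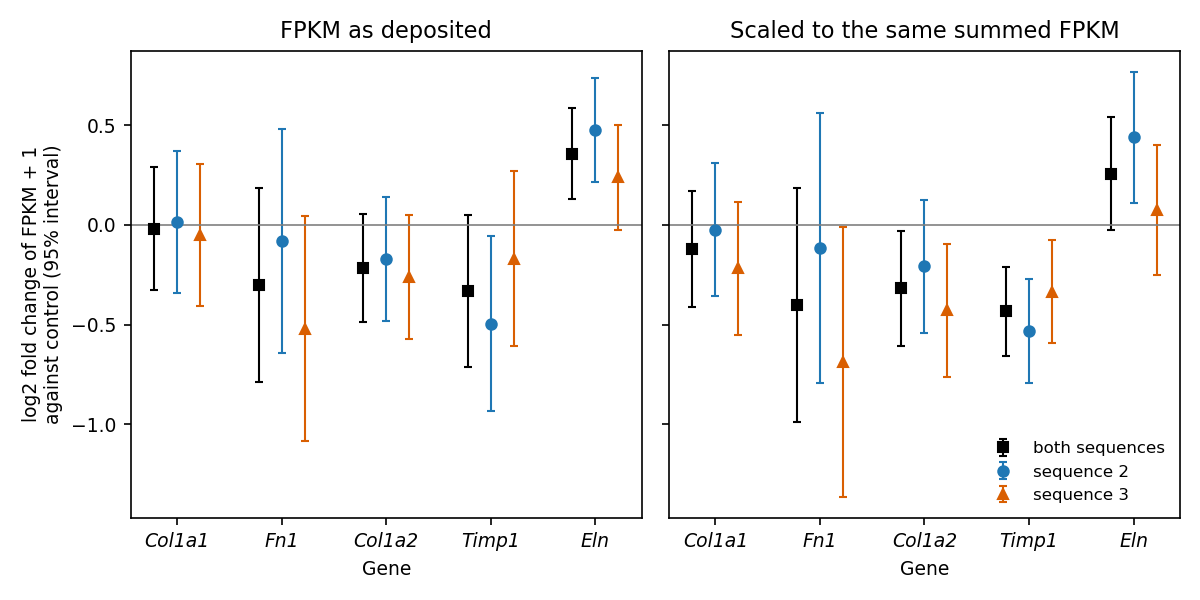
Difference from control in log2(FPKM + 1) of 5 matrix genes, with 95% intervals from limma, for both sequences together, sequence 2 and sequence 3. The left panel uses FPKM as deposited and the right panel FPKM scaled to the same sum in every library, where the interval of Timp1 for both sequences, -0.66 to -0.21, no longer spans 0 and that of Eln, -0.03 to 0.54, does. The interval of Col1a2 for both sequences, and those of Timp1, Col1a2 and Fn1 for sequence 3, also no longer span 0 there.

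Timp1 lies on the minus strand of the X chromosome from 1364786 to 1369384 in the files and had 1 start and 1 end event, equal in each library. Its FPKM was 868 and 1014 in the controls, 703 and 630 with sequence 2, and 729 and 955 with sequence 3. As deposited, replicate 2 of sequence 3 lay between the controls, while the other 3 knockdown libraries were below both. Timp1 had a log2 fold change of -0.33 (95% interval -0.71 to 0.05, adjusted p = 0.279 from limma) and of -0.43 (adjusted p = 0.154) without replicate 2 of sequence 3. Leaving out control replicate 2 gave -0.22 (adjusted p = 0.652 from limma), and leaving out replicate 1 of sequence 3 gave -0.24 (adjusted p = 0.305).

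As a share of the summed FPKM, Timp1 was at 0.291% and 0.317% in the controls, 0.216% and 0.204% with sequence 2, and 0.224% and 0.259% with sequence 3. All 4 knockdown libraries then lay below both controls, as did 15.3% of the tested features on this scale, while 16.5% lay above. After this scaling the log2 fold change was -0.43 (95% interval -0.66 to -0.21, adjusted p = 0.0608 from limma), a fold of 0.740. After quantile normalization, which makes the distributions of the libraries alike, it was -0.55 (adjusted p = 0.00524 from limma) and passed the test, as it did with sequence 2 alone at -0.63 (adjusted p = 0.00624) and with sequence 3 alone at -0.47 (adjusted p = 0.0190). With this normalization 341, 281 and 287 of all 10558 features passed as lower in these comparisons, against 299, 255 and 253 as deposited. Over the alternatives that kept all 6 libraries, the adjusted p from limma for both sequences ranged from 0.00524 to 0.354. It was under 0.05 with quantile normalization only, so the call of Timp1 rests on that normalization.

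Col1a2 stayed below control in all 4 knockdown libraries on the scaled values, at 0.437% and 0.401% of the sum in the controls and 0.282% to 0.392% with knockdown. Its log2 fold change after scaling was -0.32 (95% interval -0.61 to -0.03, adjusted p = 0.210 from limma). Eln was at 0.0259% and 0.0233% in the controls, 0.0313% and 0.0358% with sequence 2, and 0.0283% and 0.0237% with sequence 3, so that replicate 2 of sequence 3 came to lie between the controls. Its log2 fold change was then 0.26 (95% interval -0.03 to 0.54, adjusted p = 0.292 from limma). With sequence 2 alone it was 0.44 (adjusted p = 0.187 from limma), and with sequence 3 alone it was 0.07 both after this scaling (adjusted p = 0.788) and after quantile normalization (adjusted p = 0.794). Both libraries of sequence 2 stayed above both controls for Eln on either scale. The share of all features with this order was not computed.

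**Figure D3:**
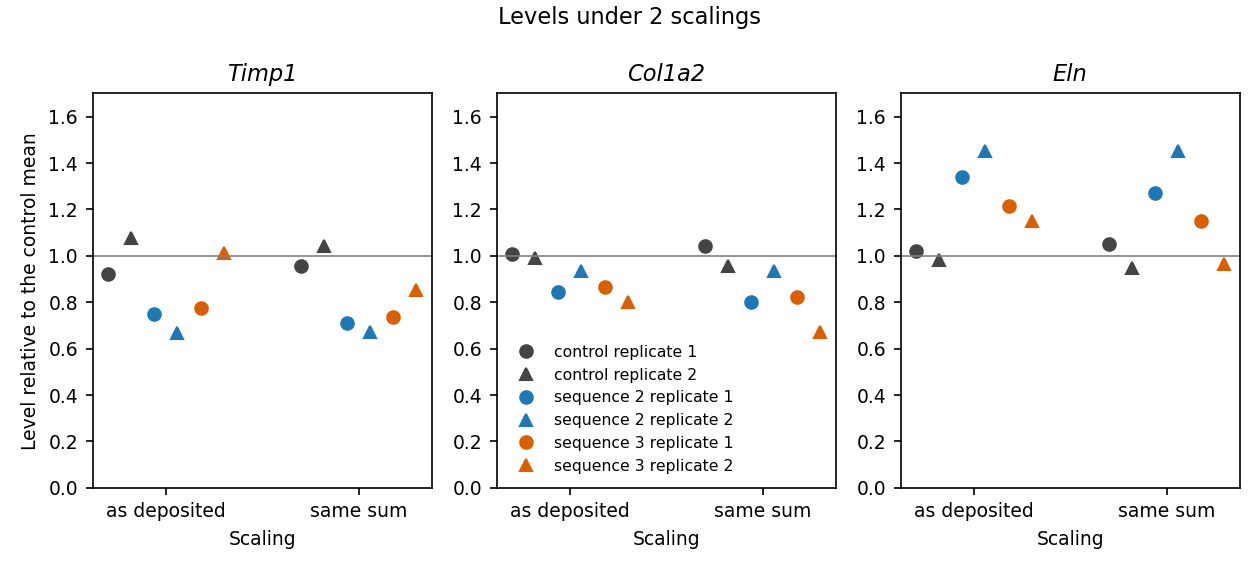
Level of Timp1, Col1a2 and Eln in each library relative to the mean of the controls, for FPKM as deposited and for FPKM scaled to the same sum, 1 point per library. With scaling, the 4 knockdown libraries of Timp1 (0.204% to 0.259% of the sum) lie below both controls (0.291% and 0.317%), and the Eln value of replicate 2 of sequence 3, 0.0237%, lies between the controls.

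Fn1 also carried splicing events, which the gene level does not show. Fibronectin transcripts are known to include or skip the exons EIIIB and EIIIA, which are typical of fibronectin made by cells in the vessel wall and are skipped in plasma fibronectin, and to use a variable region (V) in longer or shorter forms. The files do not name these exons. They listed 2 skipped exons whose lengths and order are those known for EIIIB, 273 bases from 78928841 to 78929113, and EIIIA, 270 bases from 78918304 to 78918573. They also listed an exon with 3 forms that share 1 end at 78911609 and are 467, 392 and 107 bases long, the shorter ones lacking 75 and 360 bases as the forms of the V region do.

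The EIIIA exon was included in 42.4% and 50.3% of the Fn1 FPKM at this site in the controls, 53.4% and 54.3% with sequence 2, and 54.1% and 52.2% with sequence 3. All 4 knockdown libraries were above both controls, an order that 9.19% of the 740 exon skipping pairs with both forms listed in all libraries also showed, while 8.78% showed the opposite. Among 348 pairs with a summed FPKM of 10 or more these shares were 11.5% and 9.77%. The mean was 46.3% ± 5.59 (SD, n = 2) in controls and 53.5% ± 0.960 (SD, n = 4) in knockdown, a difference of 7.16 percentage points against a median absolute difference of 4.29 over the 740 pairs. The controls differed from each other by more than this. The difference was 3.21 points without control replicate 1 and 11.1 without control replicate 2. No test of these shares was run.

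In FPKM, the included EIIIA form had levels of 580 and 574 in the controls against 380 to 722 with knockdown, and the skipped form 788 and 567 against 348 to 607. Estimates were -0.08 on the log2 scale for the included form (adjusted p = 0.876 from limma over all events) and -0.50 for the skipped form (adjusted p = 0.331). Neither form passed the test.

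The included share of EIIIB lay below that of EIIIA in all 6 libraries. It was 35.0% and 32.7% in the controls, 29.8% and 34.0% with sequence 2, and 33.3% and 35.7% with sequence 3, and the groups overlapped. The difference between knockdown and control was -0.67 percentage points. In replicate 1 of sequence 2 another included form of this exon, 271 bases long, was listed, and counting it brought that library from 29.8% to 32.6% and the difference to 0.03 points, a setting chosen after seeing the data.

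The longest V form made up the largest share in every library, at 55.2% and 50.3% of the 3 forms in the controls, 63.6% and 54.3% with sequence 2, and 54.1% and 52.2% with sequence 3. The form of 392 bases held 37.5% and 38.1% in the controls and 35.5% to 41.0% in 3 knockdown libraries, but 20.8% in replicate 1 of sequence 2. In that library the FPKM of this form, 220, equalled that of the Fn1 start from 78966205 to 78966264. The form of 107 bases held 7.35% and 11.6% in the controls and 6.83% to 15.6% in the knockdown libraries. The groups overlapped for all 3 forms. In 4 of 6 libraries the FPKM of the included EIIIA form equalled that of the longest V form within 0.1%, so that these values were not independent measurements of the 2 sites. The exceptions were control replicate 1, which had the lowest EIIIA share, and replicate 1 of sequence 2.

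**Figure D4:**
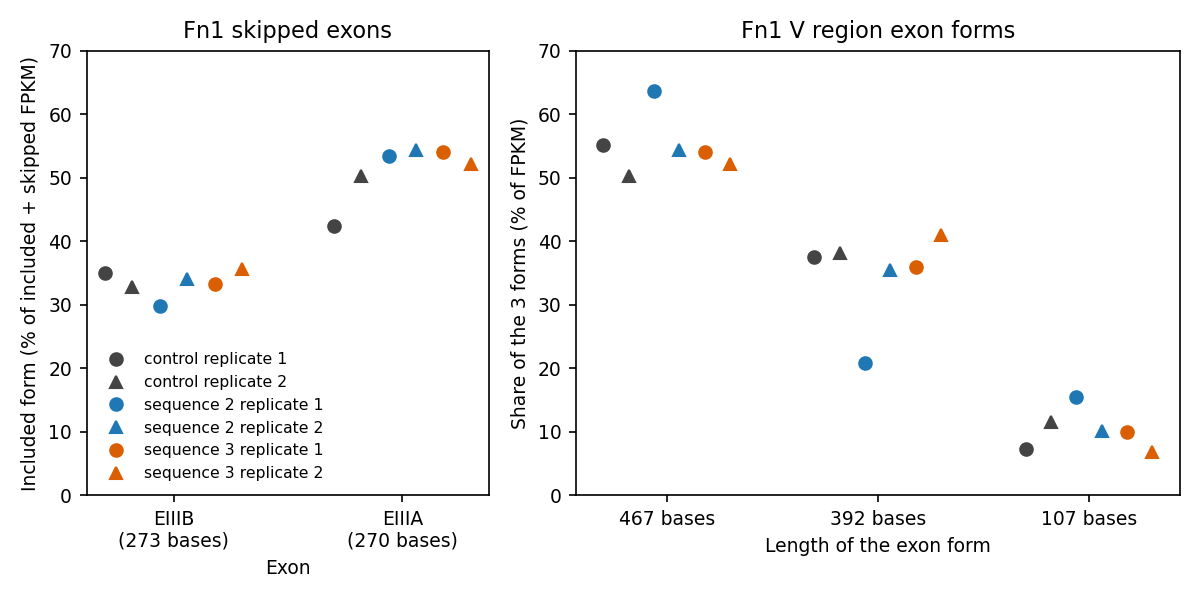
Splice forms of Fn1 in each library. The left panel gives the included form of EIIIB and EIIIA as a percentage of included plus skipped FPKM, with EIIIA at 42.4% and 50.3% in the controls and 52.2% to 54.3% with knockdown, and the right panel gives the share of each V region exon form, the longest being the largest in all libraries.

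Of 69 events listed for the 6 IDs, 32 reached an FPKM of 1 in 2 or more libraries and entered the test, and 0 passed an adjusted p of 0.05 by limma in knockdown against control, where 3.31% of 35242 events passed. At an unadjusted p under 0.05 there were 2, the start and the end of the same gene, Eln. The share of all events at that level was not computed. Without replicate 1 of sequence 2, the log2 fold change was -5.30 for the retained intron of Col1a2 and its exon. Without replicate 2 of sequence 2, that of the downstream start of Col1a2 was -5.34. With all libraries each of these was -2.78. The larger values rest on the remaining library of sequence 2, which listed the other form.

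The features with the most similar pattern over the 6 libraries were sought among 4672 others with a mean FPKM of at least 10, by the root mean square difference of log2(FPKM + 1) after each was centred on its own mean. The smallest difference was 0.025 for Col1a1, 0.031 for Col1a2, 0.043 for Eln, 0.052 for Timp1 and 0.061 for Fn1. The nearest features carry Ensembl IDs without a name here, ENSRNOG00000032492 for Col1a1 and ENSRNOG00000058139 for Eln among them. Within a distance of 0.1 there were 343 features for Col1a1, 153 for Col1a2, 72 for Eln, 28 for Timp1 and 20 for Fn1, so a flat pattern such as that of Col1a1 was shared by many features. The collagen I chains were nearest to each other among the 5 genes, at 0.101, but 349 other features were nearer to Col1a1 and 156 nearer to Col1a2.

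The ratio of the plus-strand Col1a1 level to Col1a2 was looked at after the values were seen. It was 2.98 and 2.83 in the controls, 3.32 and 3.28 with sequence 2, and 3.30 and 3.50 with sequence 3, above both controls in all 4 knockdown libraries. Of 10557 other features, 39% likewise had a ratio to Col1a2 above both controls in all 4, so this order was common, and it is given without a test.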

How the data were processed

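RNA-seq of 6 VSMC libraries was analysed. The authors deposited, for each library, FPKM values of transcript starts, transcript ends and splicing events. HISAT2 2.0.1, StringTie 1.0.4, Trimmomatic 0.30, HTSeq 0.6.1, SAMtools 0.1.18 and bcl2fastq 2.17.1.14 stand in the submitters' processing notes without a stated role. Genome build, annotation and event caller: not given in the sources used here.

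Repeated event rows (8983) were dropped. A feature was an Ensembl ID, or a locus lacking one, and an unlisted feature was set to 0, which can be a failed estimate. Features reaching an FPKM of 1 in 2 or more libraries entered limma 3.58.1 (R 4.3.3) as log2(FPKM + 1), with trend, a mean per group, and Benjamini-Hochberg adjustment over every feature. On this scale the change of low features is understated. The fit was tested on simulated data, in which knockdown changes as small as those estimated for these genes were not recovered. Python 3.11.15 and pandas 2.3.3 read the tables. No Ensembl ID other than the 6 chosen could be paired with a name, so the planned lists of matrix genes and cell type markers were not analysed. The rule for named genes took all 6 and the feature of nearest pattern to each, of which at most 2 unnamed IDs are printed. Genes and lists were chosen with earlier results of these data known. Alternatives comprised pseudocount, filter, normalization, starts or ends alone, the trend, a replicate block and each library left out.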

Additional observations from a re-analysis of the deposited data

Results flagged for a closer look

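The use of the downstream start of Fn1 stood out in 1 library. This start, from 78966205 to 78966264 in the files, held 20.1% and 17.6% of the summed Fn1 starts in the controls, 20.8% and 20.3% with sequence 2, 20.8% in replicate 1 of sequence 3 and 6.83% in replicate 2 of sequence 3. Among the 4 knockdown libraries, the gap of that library to its nearest neighbour was 0.962 of the whole range. It was 1 of 11 quantities checked in this way. The nominal rate of this check, about 1 in 20 by chance, was not measured here. It takes the 4 libraries as 1 group, whereas they come from 2 sequences. In that library the FPKM of this start, 49.7, equalled that of the shortest V form. The same library had the lowest Fn1 level and the highest summed FPKM, and their part in this value was not tested.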

How the results depend on the processing

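All values are log2 fold changes unless stated, and the cause of each change was not tested. The number of matrix genes passing the test stayed at 0 in each direction of every comparison under all alternatives run, except that quantile normalization gave 1 lower gene, Timp1, in knockdown against control and with each sequence. In these comparisons 341, 281 and 287 of all 10558 features passed as lower with quantile normalization, against 299, 255 and 253 as deposited. Among the member events, the retained intron of Col1a2 was at -5.30 without replicate 1 of sequence 2, against -2.78 with all libraries and -0.25 without replicate 2 of sequence 2. The gene estimates kept their direction in 359 of 375 cases. The 16 cases that changed direction were all uncalled. For Col1a1 in knockdown against control they were 0.085 with summed ends only and 0.042 and 0.023 when 1 library was left out (range -0.080 to 0.042). With sequence 2, Col1a1 gave -0.0058 with each library scaled to the same median, -0.024 with the same summed FPKM, -1.05 with summed ends only and a range of -0.072 to 0.098 when 1 library was left out. With sequence 3 it gave 1.22 with summed ends only and -0.112 to 0.0097 when 1 library was left out. Between the sequences it gave 2.27 with summed ends only and -0.150 to 0.020. Ends of its plus-strand locus were listed in 1 library only. Fn1 with sequence 2 ranged from -0.243 to 0.086, and Timp1 with sequence 3 from -0.363 to 0.025, when 1 library was left out. Col1a2 gave 1.31 between the sequences, -0.918 in knockdown and -1.57 with sequence 2 with summed starts only, and with quantile normalization -0.362 in knockdown and -0.488 with sequence 3. The inclusion of EIIIA differed by 3.21 to 11.1 and that of EIIIB by -1.83 to 0.483 percentage points when 1 library was left out.

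The deviations of same-numbered libraries had correlations of -0.071, 0.181 and -0.086 between the groups. With so few replicates per group, these values cannot decide whether the numbers mark a pairing. With the replicate block 0 genes passed in either direction, and 254 lower and 125 higher features passed in knockdown against control, against 299 and 240. Without read counts, no limit from depth can be stated.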
